A study of Mus musculus with 36 samples.

Results

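Olaparib was compared with its vehicle DMSO in RM-1-BM mouse prostate cancer cells that carried the F133V mutant of SPOP and grew opposite RAW264.7 macrophages. The comparison rests on 6 of the 36 libraries of the series, 3 with olaparib (F133V+RAW264.7+Ola) and 3 with DMSO (F133V+RAW264.7+DMSO), chosen by their titles, and it covers all 15962 genes that passed a filter on low counts out of 46078 listed. RM-1-BM is a mouse prostate cancer line, and RAW264.7 is a mouse macrophage line. Cocultures used transwells, in which a membrane keeps the 2 cell types apart while they share medium. All 6 libraries therefore have the F133V construct, the macrophage partner and the transwell in common, and differ by the drug. The same olaparib contrast was read in F133V cells grown alone (3 and 3 libraries) and in cocultured cells with an empty vector in place of the mutant (3 and 3 libraries). The labels give neither the dose nor the time of treatment. Nothing in them ties a group's 3 libraries to separate cultures. The p-values therefore cover only the variation among libraries, which may be technical.

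SPOP is the substrate adaptor of a CUL3 ubiquitin ligase, and F133 lies in the domain that binds substrates. Mutants of this domain recur in prostate cancer and leave several substrates undegraded. Olaparib blocks the catalytic site of PARP1 and PARP2, enzymes that mark DNA breaks with chains of ADP-ribose, and it holds them on DNA. Cells with poor repair by homologous recombination are known to be sensitive to it. In a transwell, signals from macrophages reach the cancer cells only through the medium.

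Gene counts ran from 32424646 to 43062440 per library, and no pair of libraries was identical. Levels below are edgeR CPM, the counts of a gene relative to library size, scaled by TMM, a factor that corrects each library for its composition. The 3 DMSO libraries stood apart from all other cancer-cell groups. They lay at 102, 102 and 103 on the first principal component, which held 57.8% of the variance, and the olaparib libraries lay at 13.5, 12.6 and 12.5. The next highest group, F133V cells alone with DMSO, lay between 49.4 and 49.9. Over all tested genes the median absolute log2 difference (pseudocount 0.5 CPM) between group means was 0.502 from F133V to vector cocultures with DMSO. It was 0.218 between the same cultures with olaparib. Within the DMSO group, library 1 differed most from the others, with a chi-square per degree of freedom of 18 against library 2 and 11.8 against library 3, where libraries 2 and 3 gave 2.8.

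**Figure D1:**
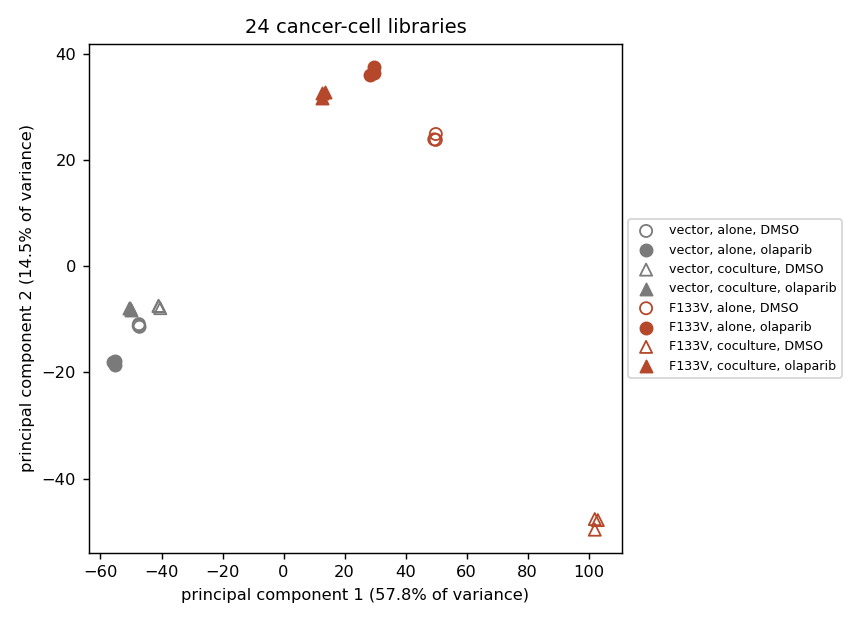
Principal components 1 and 2 (unitless scores, with their share of the variance) of 24 cancer-cell libraries, 1 point per library. Open symbols are DMSO and filled symbols olaparib, circles are cells alone and triangles cocultures, grey is vector and red F133V. The 3 F133V cocultures with DMSO sit between 102 and 103 on the first component, to the right of every other group.

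Carry-over from the macrophages was read from 20 macrophage markers. Their summed level was 16.6 to 18.2 CPM in the DMSO libraries and 14 to 15.1 CPM in the olaparib libraries. In 12 macrophage libraries, scaled by library size alone, it was 14489 to 16862. Lyz2, lysozyme of myeloid cells, read 0.868 to 1.64 CPM in the 6 libraries and at least 3640 in macrophages. Cd68, a lysosomal protein of macrophages, had the highest level of the 20 in the cancer libraries, at most 6.29 CPM, against at least 1062 in macrophages. Epithelial markers differed among themselves. Cdh1 was at 0 in all 6 libraries and Epcam did not exceed 0.169 CPM, whereas keratin Krt18 read 359 to 385 CPM with DMSO and 112 to 116 with olaparib, and Krt19 read 7.48 to 12.1 CPM. So did mesenchymal markers, with Pdgfrb at 103 to 127 CPM, Pdgfra at 2.67 to 4.3 and Thy1 at 0 in all 6.

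RNA classes also differed with the drug. Genes annotated as small structural RNA took 395 to 422 CPM with DMSO and 96.9 to 102 with olaparib. The gene model Gm26917, singled out once its level was known, held 3.56% of reads in genes with DMSO and 0.487% with olaparib. Protein-coding genes took 90.6% and 94%. The part of these differences in the results below was not tested. In a fit without structural, mitochondrial and ribosomal RNA and Gm26917, 12019 genes were called.

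Most measured genes differed between olaparib and DMSO. In these bulk samples a change in the mix of cell states and a change in RNA per cell cannot be told apart. edgeR's quasi-likelihood test called 12185 of 15962 genes at a Benjamini-Hochberg adjusted p under 0.05 (76.3%), of which 6280 were higher (39.3%) and 5905 lower (37%). At least 2-fold changes were called for 4024 genes (25.2%), 2479 higher (15.5%) and 1545 lower (9.68%). The 3 and 3 libraries did not overlap for 12398 genes (77.7%). The median absolute log2 fold change over all genes was 0.575. Scaling by library size alone, without TMM, called 7747 of 12196 genes higher, and moved the median log2 fold change of all genes from 0.025 to 0.231.

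The other 2 olaparib contrasts were smaller. In F133V cells alone 5772 genes were called (36.2%) and 317 at least 2-fold (1.99%), with a median absolute log2 fold change of 0.158. Of these 2912 were higher, against 4607 of 6178 under scaling by library size alone and 2428 of 6186 after removal of length and GC trends. In vector cocultures 3765 genes were called (23.6%) and 125 at least 2-fold (0.783%), with a median of 0.113. There 2019 were higher, against 1606 of 4082 after removal of those trends. The differences themselves were tested as interactions. The olaparib difference in F133V cells differed between coculture and cells alone for 10289 genes (64.5%), and in coculture it differed between F133V and vector cells for 10751 genes (67.4%). The culture interaction was positive for 5257 of its calls, and for 6381 of 10388 under scaling by library size alone. The genotype interaction was positive for 5651, and for 7188 of 10904 under that scaling.

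**Figure D2:**
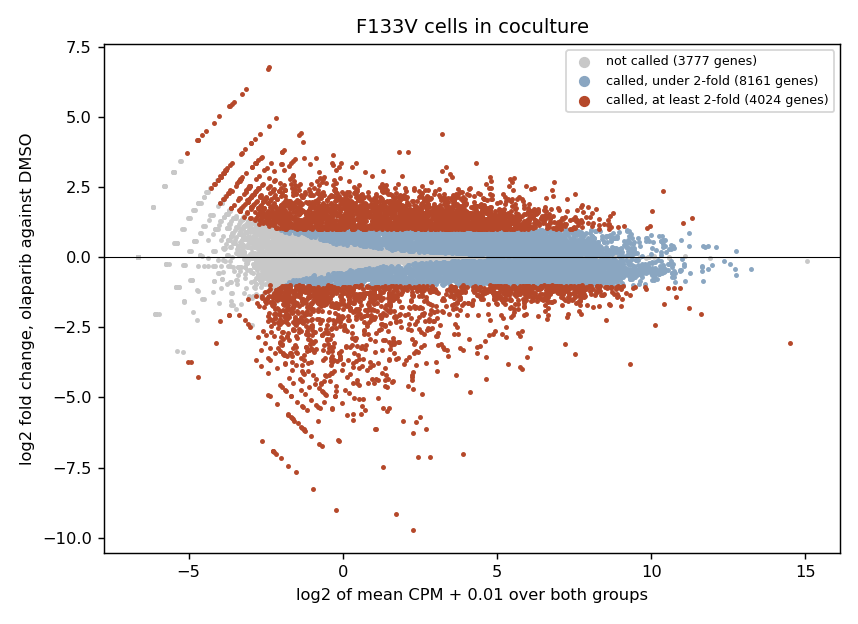
Log2 fold change of olaparib against DMSO in F133V cocultures, against the log2 of the mean CPM plus 0.01 over both groups, 1 point per tested gene. Red points are the 4024 genes called at least 2-fold, blue points the 8161 called under 2-fold and grey points the 3777 not called.

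The regulatory letters upstream of some of the gene groups are shown first, since members of a group moved together. RefSeq promoter windows on GRCm38.p6, from 250 bases before to 50 bases after a start site, were searched on both strands for 8 spellings of 6 motifs. The letters were chosen with the gene results known, 4 of the 8 spellings were added after the first choice, and a match is a description of letters only. Each sequence below runs 5′ to 3′ on the gene's strand, ends before the start site, and has the match in capitals.
Gclm, chr3:122245388-122245466, plus strand, antioxidant response element: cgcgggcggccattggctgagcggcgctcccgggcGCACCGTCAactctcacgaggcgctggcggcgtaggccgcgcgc
Txnrd1, chr10:82859079-82859157, plus strand, antioxidant response element: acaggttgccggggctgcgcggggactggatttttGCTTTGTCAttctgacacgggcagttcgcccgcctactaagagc
Hspe1, chr1:55088024-55088111, plus strand, heat shock element with 2 overlapping matches: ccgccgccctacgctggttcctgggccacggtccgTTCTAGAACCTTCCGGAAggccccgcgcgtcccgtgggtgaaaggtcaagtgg
Dnajc3, chr14:118937792-118937880, plus strand, endoplasmic reticulum stress element: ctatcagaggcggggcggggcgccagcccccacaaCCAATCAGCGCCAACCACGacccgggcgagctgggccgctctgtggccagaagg
Creld2, chr15:88819485-88819573, plus strand, endoplasmic reticulum stress element: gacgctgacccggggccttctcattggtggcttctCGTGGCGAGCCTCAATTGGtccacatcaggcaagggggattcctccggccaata
Stat2, chr10:128270248-128270320, plus strand, interferon-stimulated response element: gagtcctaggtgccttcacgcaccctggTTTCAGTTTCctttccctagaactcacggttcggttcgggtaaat

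The antioxidant response element TGACNNNGC was in 14 of the 36 windows of NRF2 list members (38.9%), and in 12.4% of all 32851 windows. The endoplasmic reticulum stress element, CCAAT and CCACG with 9 free bases between them, was in 8 of 19 windows of chaperone genes (42.1%) and in 0.119% of all windows. For the heat shock element, the first spelling GAANNTTC was in 10 of 17 windows of heat shock genes (58.8%) and 7.86% of all windows, and the added longer spelling, which continues with 2 free bases and GAA, in 5 of 17 (29.4%) and 0.603%. The added interferon-stimulated response element, GAAA repeated after 2 free bases, was in 13 of 36 windows of interferon-stimulated genes (36.1%) and 3.44% of all windows. The added hypoxia response core ACGTGC was in 11 of 25 windows of the oxygen-sensing list (44%) and 5.91% of all windows. The genes printed above all moved with their list, but some other members with a match did not. With the antioxidant response element, G6pdx rose by 0.62 and Srxn1 was not called (-0.05), and the other 10 genes were lower. Canx was the 1 of 8 genes with the endoplasmic reticulum stress element that fell (-0.15). Hif1a and Ak4, of 10 genes with the hypoxia core, were not called. The sterol regulatory element was in none of 25 windows of sterol genes, neither as ATCAC, a C and CCAC (0.0913% of all windows) nor in the added spelling that leaves the middle base free (0.234%), which says only that these letters are not in these windows.

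Genes of the NRF2 pathway fell with olaparib. NRF2, encoded by Nfe2l2, is the transcription factor that switches on glutathione, thioredoxin and NADPH genes under oxidative stress. Of 30 tested members of the list, 26 were lower and 3 higher, with a median log2 fold change of -0.90 against 0.025 over all genes. Over all tested genes 37% were lower and 39.3% higher. Gclm, the modifier subunit of the enzyme that starts glutathione synthesis (chr3:122245557-122270732, GRCm38), read 332, 353 and 332 CPM with DMSO. With olaparib it read 31.7, 31.2 and 30.7 CPM. The groups were far apart, and the log2 fold change was -3.44 ± 0.03 (SE, adjusted p = 7.4e-44, edgeR). Txnrd1, thioredoxin reductase, read 1870, 1910 and 1845 CPM with DMSO and 353, 344 and 347 with olaparib, a change of -2.43 ± 0.02 (adjusted p = 4.9e-45, edgeR). The letters printed for both genes lie within 250 bases upstream of a RefSeq start.

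Further members of the pathway fell by different amounts. Gsr, glutathione reductase, fell by 2.12, Pgd of the pentose phosphate pathway by 1.48, and the cystine transporter gene Slc7a11 by 1.65 on the log2 scale. Osgin1 read 100, 105 and 97.2 CPM with DMSO and 6.75, 6.51 and 6.61 with olaparib. Nfe2l2 itself read 319, 325 and 327 CPM and then 226, 230 and 229, a smaller fall of 0.50 ± 0.03. Hmox1, heme oxygenase, fell by 0.74. In the list of thioredoxin and peroxiredoxin genes 8 of 18 were higher and 7 lower, near the 39.3% and 37% of all tested genes. Prdx1 fell by 1.06 and Prdx6 by 1.67, while Gpx4, which reduces lipid peroxides, rose by 1.06 ± 0.02. In F133V cells alone 20 of the 30 NRF2 members were lower (17.9% of all genes were) with a median of -0.20, and in vector cocultures 16 were lower (10.9% of all genes) with a median of -0.12. The culture interaction was called lower for 25 of the 30 (31.5% of all genes) and the genotype interaction for 24 (32%).

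Chaperones of the heat shock response, which refold proteins, fell. All 16 tested members of the list were lower, against 37% of all tested genes, with a median of -0.91. Hsph1, a co-chaperone of HSP70 (chr5:149614287-149636376), read 797, 816 and 806 CPM with DMSO and 238, 242 and 248 with olaparib. These groups did not overlap, and the change was -1.73 ± 0.02 (adjusted p = 7.7e-40, edgeR). Hspa4l fell by 2.23, the inducible Hspa1b by 1.92, Dnaja1 by 1.24, Hspa8 by 0.89 and Hsp90ab1 by 0.85. Both interactions were called lower for all 16. Their median was -0.15 in F133V cells alone and -0.05 in vector cocultures.

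Chaperones of the endoplasmic reticulum (ER) moved the other way. They fold secreted proteins and are induced by the unfolded protein response. Of 21 tested, 19 were higher and 2 lower, against 39.3% and 37% of all tested genes, with a median of 0.61. Sdf2l1 read 39.9, 40.2 and 37.1 CPM with DMSO and 124, 119 and 122 with olaparib, a rise of 1.63 ± 0.04 (adjusted p = 2.1e-31, edgeR). Dnajc3, an inhibitor of the kinase PERK, rose by 1.37, Creld2 by 1.35 and Manf by 0.94. The same list went down in the other cultures: none of the 21 was higher and 15 were lower in F133V cells alone, and all 21 were lower in vector cocultures (median -0.27). Under scaling by library size alone the split in F133V cells alone was 4 higher and 8 lower. Both interactions were called higher for 19 of the 21 (32.9% of all genes for culture and 35.4% for genotype). Preb, a regulator of vesicle export from the ER, rose by 1.37 ± 0.02 and changed by 0.01 in F133V cells alone.

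The integrated stress response, which ATF4 drives when translation is restrained, was mixed. Of 24 tested members 9 were higher and 15 lower (median -0.29). Over all tested genes 39.3% were higher and 37% lower, so the higher share was near the background. Ddit3, which encodes CHOP, read 346, 348 and 344 CPM and then 651, 659 and 648, a rise of 0.92 ± 0.02. Chac1, which degrades glutathione, rose by 1.09 and the mitochondrial enzyme gene Pck2 by 1.12. Gdf15, a secreted stress hormone, fell by 2.07 and Atf5 by 1.22. In F133V cells alone 18 of the 24 were lower and 3 higher, against 17.9% and 18.2% of all genes. Under scaling by library size alone that split was 11 lower and 5 higher. In vector cocultures 19 were lower, against 10.9% of all genes, and none was higher. In F133V cocultures amino acid transporter genes were lower for 11 of 13 (median -0.67), against 37% of all tested genes. Slc38a2 changed by -1.43 and Slc3a2, the partner chain of Slc7a11, by -0.70.

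Lipid synthesis genes rose. In the sterol list 23 of 27 were higher and 3 lower (median 1.18), and in the fatty acid list 12 of 16 were higher and 3 lower (median 0.65). Over all tested genes 39.3% were higher and 37% lower. Insig1, a feedback regulator of SREBP, read 42.9, 47.4 and 47.5 CPM with DMSO and 130, 128 and 129 with olaparib (1.49 ± 0.03, adjusted p = 2.8e-32, edgeR). Lss, lanosterol synthase, rose by 1.53 and Sqle, squalene epoxidase, by 1.18. Scd2, a stearoyl-CoA desaturase (chr19:44293674-44306864), read 434, 431 and 434 CPM and then 2258, 2246 and 2227, a rise of 2.37 ± 0.02 (adjusted p = 3.5e-45, edgeR). Fads2 rose by 2.55, Elovl6 by 2.03 and Scd1 by 1.45. Apoe, a lipid carrier, fell by 2.02, and Acacb, an acetyl-CoA carboxylase, by 6.14. The levels of Scd2 in the other groups were 2714 CPM in vector cocultures with DMSO, 2586 with olaparib, and 258 and 433 in F133V cells alone.

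Oxygen-sensing and glycolysis genes were mostly higher. HIF factors induce them when oxygen is low. Of 23 in the HIF list 18 were higher and 1 lower (median 0.70), and of 21 glycolysis genes 16 were higher and 3 lower (median 0.36). The shares over all tested genes were 39.3% and 37%. Egln3, a prolyl hydroxylase that marks HIF for decay, read 91.7, 97.7 and 90.4 CPM and then 346, 339 and 338 (1.87 ± 0.03). Slc2a3, a glucose transporter gene, rose by 1.81, Aldoc by 3.07, Tpi1 by 1.03, Ero1l by 0.85, Mxi1 by 1.34 and Bhlhe40 by 1.74. Kdm3a, a histone demethylase, was the member that fell, from 452, 466 and 455 CPM to 197, 195 and 200. These lists also rose in F133V cells alone, where 17 of 23 HIF members (median 0.49) and 15 of 21 glycolysis members (median 0.32) were higher, against 18.2% of all genes. In vector cocultures 6 and 4 were higher (12.6% of all genes) and 9 of each list lower.

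Mitotic genes rose while replication genes were divided. Of 36 mitosis genes 34 were higher and 2 lower (median 0.79), against 39.3% and 37% of all tested genes. Cenpf, a kinetochore protein, read 35.7, 38.5 and 33.5 CPM with DMSO and 97.8, 99 and 99.4 with olaparib (1.45 ± 0.03, adjusted p = 2.4e-31, edgeR). Mki67, the proliferation antigen, rose by 0.91, Top2a by 0.90 and the cyclin gene Ccna2 by 1.13. Ccnd1, cyclin D1, read 91.7, 98.6 and 94.1 CPM and then 332, 334 and 331 (1.81 ± 0.02). Of 37 replication genes 12 were higher and 19 lower, and their median of -0.11 became 0.10 under scaling by library size alone. Pcna, the sliding clamp, fell by 1.34 and Mcm10 by 1.48, while Rrm2, a subunit of ribonucleotide reductase, rose by 0.92. For the mitosis list the culture interaction was called higher for 34 of 36 (32.9% of all genes). In vector cocultures 17 of the 36 were higher and none lower, against 12.6% and 10.9% of all genes. In F133V cells alone 9 were higher and 3 lower, against 18.2% and 17.9%.

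Repair and PARP genes, the pathway of the drug's target, moved in both directions. Over all tested genes 39.3% were higher and 37% lower. Of 40 tested genes of homologous recombination and the Fanconi pathway 23 were higher and 9 lower (median 0.39). Mus81, a structure-specific nuclease, read 6.74, 6.65 and 5.48 CPM and then 22.8, 22.4 and 22.6 (1.83 ± 0.07). Bard1 rose by 0.98, Rad50 by 0.75 and Brca1 by 0.51, and the checkpoint kinase gene Chek1 fell by 1.11. Among PARP enzymes 10 of 18 members were higher and 5 lower (median 0.22). Parp1 read 96.8, 101 and 100 CPM with DMSO and 141, 144 and 142 with olaparib (0.52 ± 0.03, adjusted p = 1.1e-19, edgeR). Parp3 rose by 1.38 and Parp14 by 2.02, and the tankyrases fell, Tnks by 0.56 and Tnks2 by 0.66. Parp2 read 10, 11.6 and 9.79 CPM and then 11.5, 12.7 and 13 (0.24 ± 0.07, adjusted p = 0.0024, edgeR), with overlapping groups. Parp2 was not called after removal of length and GC trends (0.07).

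Targets of p53, the transcription factor that halts the cell cycle after DNA damage, were mostly lower. Of 29 tested, 20 were lower and 3 higher (median -0.40), against 37% and 39.3% of all tested genes. Cdkn1a, which encodes the inhibitor p21, read 398, 416 and 402 CPM and then 263, 257 and 259 (-0.64 ± 0.02, adjusted p = 2.2e-24, edgeR). Eda2r fell by 2.05, the nuclease gene Aen by 1.74, Plk2 by 1.15 and Mdm2, which degrades p53, by 0.71. In F133V cells alone 8 of the 29 were lower and 5 higher, against 17.9% and 18.2% of all tested genes. Under scaling by library size alone the split in F133V cells alone was 3 lower and 10 higher. The culture and genotype interactions were each called lower for 21, against 31.5% and 32% of all tested genes.

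Ribosome biogenesis genes, which make and process ribosomal RNA, fell. Of 26 tested 25 were lower and 1 higher (median -0.84), against 37% and 39.3% of all tested genes. Ncl, nucleolin, read 2322, 2331 and 2329 CPM and then 1104, 1088 and 1112 (-1.08 ± 0.03). Npm1 fell by 1.10, Utp20 by 1.25, Ddx21 by 1.14, and Myc, a driver of this programme, by 0.50. All 26 were lower in F133V cells alone (median -0.29). Proteasome genes were lower for 22 of 31 and higher for 4, and their median of -0.20 became 0.01 under scaling by library size alone.

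Small structural RNAs were mostly lower with olaparib. Rn7sk, the small RNA that sequesters P-TEFb, a kinase needed for transcript elongation (chr9:78175303-78175633), read 262, 281 and 258 CPM with DMSO and 31.6, 29.4 and 32.4 with olaparib (-3.10 ± 0.04, adjusted p = 1e-38, edgeR). Of 9 small structural RNAs 7 were lower and none higher (median -2.10), with Rpph1 of RNase P at -2.49. In F133V cells alone 8 of the 9 were lower (median -1.16), against 17.9% of all genes. In vector cocultures 3 were lower (median -0.40), against 10.9% of all genes. The culture interaction was called lower for 6 of the 9 (31.5% of all genes). By annotated class, 38 of 65 small nuclear RNA genes and 61 of 137 small nucleolar RNA genes were lower in F133V cocultures, and 6 and 3 were higher. The lower shares were 58.5% and 44.5%, against 37% of all tested genes. The higher shares were 9.23% and 2.19%, against 39.3%. For small nucleolar RNA genes the lower share was thus near the background and the higher share below it. Among P-TEFb control genes 8 of 12 were lower and 3 higher, with the P-TEFb cyclin gene Ccnt1 falling by 1.70 and Mepce, which caps Rn7sk, by 1.30. The mitochondrial ribosomal RNA mt-Rnr2 fell by 2.02, while the mitochondrial mRNA mt-Nd5 rose by 1.12.

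SPOP and its reported substrates were read at the RNA level, where protein turnover is not seen. Spop read 93.7, 97.3 and 99.4 CPM with DMSO and 114, 115 and 112 with olaparib (0.24 ± 0.03, adjusted p = 1.8e-08, edgeR). Whether these counts include the construct was not tested. Spop was not called after removal of length and GC trends (0.04). Of 14 tested genes of the SPOP list 10 were lower and 3 higher (median -0.40), against 37% and 39.3% of all tested genes. Brd2 fell by 0.98, Daxx by 0.68, Ncoa3 by 0.43 and Sqstm1, an autophagy receptor, by 0.85.

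Interferon-stimulated genes, which carry out antiviral defence, rose. Of 36 tested 30 were higher and 1 lower (median 1.34), against 39.3% and 37% of all tested genes. Ddx58, which encodes the RNA sensor RIG-I, read 13.1, 13.7 and 11.6 CPM with DMSO and 34.9, 33.1 and 33.3 with olaparib (1.39 ± 0.05, adjusted p = 7.2e-24, edgeR). Stat2 rose by 1.03, Eif2ak2 by 1.16, Ifitm3 by 1.25, Ifitm1 by 2.46 and Samd9l by 2.15. In vector cocultures Ddx58 already read 36.4 CPM with DMSO and 39.5 with olaparib. In F133V cells alone 16 of the 36 were higher (median 0.28), against 18.2% of all tested genes. The culture interaction was called higher for 26, against 32.9% of all tested genes.

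Ifnb1, the gene of interferon beta, had no count in any of the 6 libraries, and Il6, Tnf and Cxcl10 were below the filter. In the cGAS-STING pathway, which senses cytosolic DNA, 6 of 10 genes were higher and 2 lower. The shares over all tested genes were 39.3% and 37%. Ifi204 rose by 1.62 and Irf3 by 0.76, and the kinase gene Tbk1 fell by 0.90. Mb21d1, which encodes cGAS, fell by 0.48. Tmem173, which encodes STING, read 42.1, 46 and 42.4 CPM and then 41.9, 40.9 and 41.2 and was not called (-0.08 ± 0.04, adjusted p = 0.091, edgeR). Its sign turned under scaling by library size alone (0.13). Antigen presentation genes of MHC class I were higher for 8 of 14 and lower for 1, with H2-K1 rising by 0.82 and Tapbp falling by 0.56.

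Genes of inflammatory signalling and of secreted or surface immune ligands differed in direction. Of 21 genes of NF-kB subunits, feedback and targets 10 were higher and 8 lower, and of 12 colony-stimulating factors and checkpoint ligands 8 and 3. Over all tested genes 39.3% were higher and 37% lower. Ptgs2, the inducible prostaglandin synthase, read 3669, 3731 and 3838 CPM and then 1059, 1049 and 1064 (-1.82 ± 0.03, adjusted p = 5.6e-38, edgeR). Cx3cl1, a chemokine for monocytes, read 12.8, 13.9 and 12.7 CPM and then 49.4, 52.7 and 50.5 (1.95 ± 0.05). Cd47, a surface signal against phagocytosis, rose by 1.65. Stat3 fell by 0.68, its feedback inhibitor Socs3 by 0.61 and the NF-kB subunit gene Nfkb2 by 0.98. Cd274, which encodes PD-L1, fell by 0.35 ± 0.07, and was not called under scaling by library size alone (-0.14). Csf1, the macrophage growth factor, read 175, 185 and 182 CPM and then 196, 195 and 198 (0.12 ± 0.03), a rise that was absent after removal of length and GC trends (-0.01). Spp1 rose by 0.19, and Ccl2 (1.92, 2.06 and 2.24 CPM, then 2.48, 2.47 and 1.79) was not called.

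Matrix genes were more often higher than lower, beside 39.3% of all tested genes higher and 37% lower. Of 16 collagen genes 9 were higher and 3 lower (median 0.86), and of 31 other matrix and protease genes 20 were higher and 7 lower (median 0.63). Col3a1 (chr1:45311538-45349706) read 36.2, 36.7 and 34.2 CPM with DMSO and 153, 159 and 153 with olaparib (2.11 ± 0.03, adjusted p = 2.1e-38, edgeR). Col6a3 rose by 1.59, fibronectin Fn1 by 1.42, Thbs2 by 1.18, the membrane protease gene Mmp14 by 1.15 and Sparc by 0.99, while the urokinase receptor gene Plaur fell by 0.96. Of 11 keratin and junction genes 4 were higher and 3 lower, and among them keratin Krt18 fell by 1.70 and desmoplakin Dsp by 2.85. Acta2, smooth muscle actin, read 1.28 to 1.81 CPM and then 8.06 to 8.62.

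Growth factor and rhythm genes gave no common direction. Of 8 genes of the epidermal growth factor family and its receptors 3 were higher and 3 lower, of 15 ERK feedback genes 8 and 6, of 20 genes of the TGF-beta axis 11 and 7, and of 16 clock genes 8 and 8. Over all tested genes 39.3% were higher and 37% lower, and the epidermal growth factor list was near these shares. The epidermal growth factor ligand gene Ereg fell by 1.84. Of ERK feedback genes, Dusp6 fell by 0.87 and Etv5 rose by 1.08. In the TGF-beta axis Tgfbr1 fell by 1.30 and Smad4 by 0.94, while the target gene Id2 rose by 1.99. Of the clock genes, Clock and Nr1d2 fell by 1.33 and 1.62, while Bhlhe41 rose by 1.13.

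The largest falls were of genes that olaparib libraries hardly held. Npc1l1, a sterol uptake transporter, had 321, 347 and 269 counts with DMSO and 1, 0 and 0 with olaparib. The DMSO level was 1188 times the olaparib level, with a 95% exact counting interval of 213 to 46991. Epha8, an ephrin receptor gene, had 212, 257 and 175 counts and then 0, 1 and 0, a ratio of 817 (146 to 32312). Vil1 (villin) was 148 times lower with olaparib (77.6 to 324) and the receptor gene Fgfr4 145 times (82.7 to 281). These intervals cover counting error only. L1cam, an adhesion molecule, read 34.3, 33.1 and 32.6 CPM and then 0.758, 1.2 and 1.59.

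These genes were low in most other groups too. Fgfr4 read 14 CPM in F133V cocultures with DMSO, 1.72 in F133V cells alone with DMSO and at most 0.11 CPM in the 4 vector groups. L1cam read 33.3, 6.88 and 1.03 to 1.8 CPM in the same order. Among the largest rises, Selenbp1, a selenium-binding protein, read 1.02, 0.807 and 0.605 CPM with DMSO and 17.3, 17.7 and 17.8 with olaparib (4.42 ± 0.11), against 9.33 and 11.7 CPM in vector cocultures. Smtnl2 rose by 3.77, the R-spondin receptor gene Lgr6 by 3.23 and the peptide hormone gene Apln by 2.81.

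**Figure D3:**
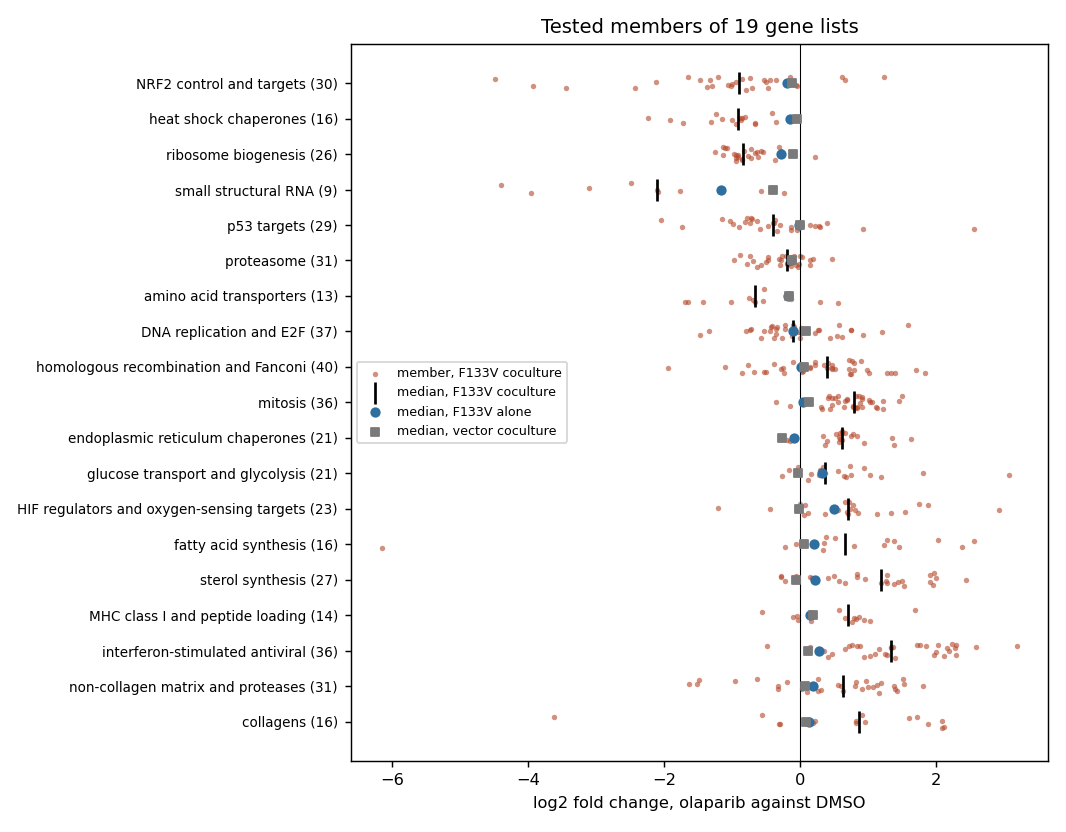
Log2 fold change of olaparib against DMSO for the tested members of 19 gene lists (number tested in brackets). Red points are members in F133V cocultures and black bars their medians, blue circles the medians in F133V cells alone and grey squares those in vector cocultures. The median of the ER chaperones is 0.61 in F133V cocultures and -0.27 in vector cocultures.

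Akr1b3, aldose reductase, showed how the olaparib difference depended on the culture. It read 1176, 1218 and 1183 CPM in F133V cocultures with DMSO and 84.4, 84 and 86.8 with olaparib (-3.81 ± 0.03). The change was -1.32 in F133V cells alone and -0.42 in vector cocultures. The culture interaction was -2.49 ± 0.04 (adjusted p = 1.8e-35, edgeR) and the genotype interaction -3.39 ± 0.04 (adjusted p = 2.1e-40, edgeR). In the plot of levels by group, F133V cocultures with DMSO held the highest mean of the 8 groups for Gclm, Txnrd1, Hsph1, Ncl, Rn7sk and Ptgs2.

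**Figure D4:**
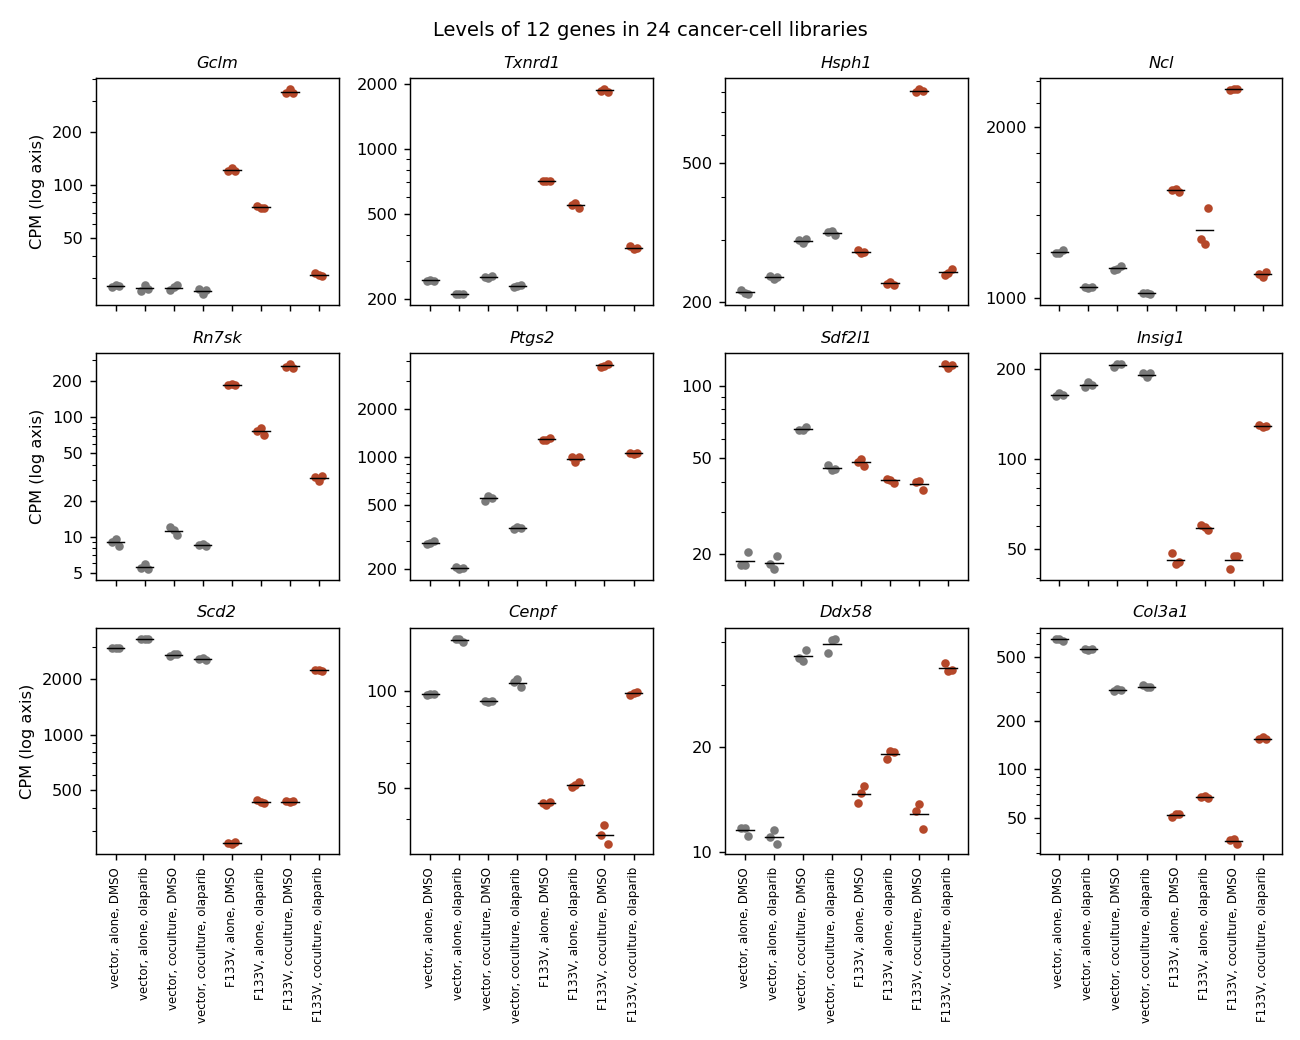
CPM (log axis) of 12 genes in the 3 libraries of each of 8 cancer-cell groups, with the group mean as a bar, grey for vector and red for F133V. Gclm averages 339 CPM in F133V cocultures with DMSO, 31.2 with olaparib, and 26.3 and 25.1 in vector cocultures.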

How the data were processed

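RNA was measured in 36 libraries, of which the 24 of cancer cells entered the fit. The authors deposited raw read counts per gene, 1 file per library, with no normalization. Per the submitters' processing notes STAR, TopHat, HTSeq and DESeq2 were used with GRCm38. Neither versions nor strandedness of counting could be read from the labels. Genes that share exonic bases with another gene therefore have uncertain counts, as do 45 of the 140 genes followed through the alternatives, among them Gclm, Parp1, Parp3, Stat3, Cd274, Cdkn1a, Ccnd1, Col3a1, Fn1, Ncl and Scd2.

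Counts were fitted in edgeR 4.0.16 under R 4.3.3 over 8 groups, using the quasi-likelihood F test after TMM scaling and filterByExpr (minimum count 10) (16 residual degrees of freedom), with Benjamini-Hochberg adjustment over 15962 genes and a threshold of 0.05. Interactions were coded as the olaparib log2 difference of F133V cocultures minus that in F133V cells alone, or minus that in vector cocultures. Coordinates are from GENCODE M21 and promoter windows from RefSeq. Figures used matplotlib 3.10.9 in Python 3.11.15.

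Members and the 49 gene lists were chosen with earlier results of these data known. Genes named are a set of fixed interest, the 12 largest rises and falls with a mean of at least 5 CPM and no overlap between libraries, up to 6 called members per list and the 10 strongest per interaction. Alternatives were DESeq2 1.42.0, RLE scaling, library size alone, no filter, only the groups compared, a replicate block, libraries left out, structural RNA removed, protein-coding genes only, and length and GC trends removed. The fit was tested on simulated data.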

Additional observations from a re-analysis of the deposited data

Results flagged for a closer look

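The olaparib difference in F133V cocultures differed from that in F133V cells alone for 10289 genes by edgeR's interaction test, and from that in vector cocultures for 10751 genes. Among genes with the smallest adjusted p for the culture interaction, the log2 values were -2.49 for Akr1b3, -2.73 for Gclm, -2.05 for Txnrd1, -1.43 for Hsph1, -3.32 for Serpinf2 and -1.72 for Zcchc2. Positive values were 1.66 for Ccnd1, 1.63 for Scd2, 1.74 for Col3a1 and 1.36 for Preb. For the genotype interaction the values were -3.39 for Akr1b3, -3.38 for Gclm, -2.28 for Txnrd1 and -1.81 for Hsph1. They were 1.91 for Ccnd1, 2.44 for Scd2, 2.04 for Col3a1, 2.42 for Ankrd44, 2.13 for Angptl2 and 2.14 for Ifitm1. Both interactions contain the same 6 libraries of F133V cocultures, so they are not independent of each other. Groups of 3 libraries were not tested for outlying samples.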

How the results depend on the processing

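The 12185 genes called ranged from 10506 (protein-coding genes only) to 12631 (no filter on low counts) over the alternatives. The 4024 called at least 2-fold ranged from 2997 (protein-coding genes only) to 4708 (no filter). These fits tested 12557 and 28018 genes, against 15962 in the main fit, so the counts are not on equal terms. With DMSO library 1 and olaparib library 3 left out together, an alternative chosen after seeing the data, 11467 were called. The interactions ranged from 9311 to 10388 genes for culture and from 9610 to 10904 for genotype. Of 2371 values of single genes, 2357 kept their direction and side of the threshold. Many of these genes were named for a small adjusted p or a large change in the main fit, and the alternatives reuse its libraries. The count therefore says little about other genes. The sign turned for Tmem173 under library size alone (0.13), and for Csf1 after removal of length and GC trends (-0.01, and -0.01 with the replicate block). The cause was not tested. Parp2 was also not called with those 2 libraries left out (0.17). Of 1666 counts of list members, 78 moved by over 1.5 times. Scaling by library size alone moved the DNA replication list to 18 higher and 11 lower, and the proteasome to 11 and 14.

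A fit with the replicate block called 12178 genes, 4021 at least 2-fold, and 10285 and 10751 for the interactions. Deviations of same-numbered libraries from their group means correlated at -0.0366, -0.00986 and -0.0209. Those of differently numbered libraries correlated at -0.0109 to 0.0327. Deviations from a mean of 3 libraries constrain each other, so these values do not settle whether the numbers pair libraries. Dose, time and culture origin limit what the contrast represents.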
